A study of Mus musculus with 24 samples.

Results

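Interferon stimulated genes are the genes that cells switch on when interferons reach their receptors. The 37 genes described here are a list of such genes, chosen with earlier results of these data known. They were matched by symbol to liver RNA-seq read counts. Of these, 36 matched a gene, among 41388 genes in the files, and all 36 passed the filter on low counts that left 16757 genes to test. Gbp6 was the gene without a match.

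Liver RNA was sequenced in a 2 by 2 arrangement of genotype and feeding. Control mice had floxed alleles (fl/fl), and knockout mice (KO) were labelled as lacking alanine transaminase 2, encoded by Gpt2, in the liver. Mice of each genotype were fed or fasted, and the fast lasted 18 h. The labels name 6 libraries in each of 4 groups and give neither the Cre driver nor strain, nor age, nor whether each library is from an animal of its own, so p-values may reflect technical spread. Left out were control fed replicate 6, whose file was cut short, and control fasted replicate 4, in which kidney genes were abundant. The 22 libraries used were 5 control fed, 5 control fasted, 6 knockout fed and 6 knockout fasted, and they held 18.4 M to 55.3 M reads assigned to genes. Gpt2 itself averaged 370 ± 51.9 CPM (SD, n = 5) in the fed control mice, where fed knockout mice had 60.5 ± 11.3 CPM (SD, n = 6). After fasting it averaged 697 ± 86.7 CPM (SD, n = 5) in control mice, against 112 ± 36.3 CPM (SD, n = 6) in knockout mice. CPM are counts per 1 M assigned reads, here scaled between libraries by TMM factors.

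Type I and type III interferons act through JAK1 and TYK2 to assemble a complex with STAT2 and IRF9 that binds the interferon stimulated response element (ISRE). The response to interferon gamma runs through JAK1 and JAK2 and reaches genes by the gamma activated site (GAS). The induced proteins include blockers of viral entry, translation and budding, GTPases that attack the vacuoles of intracellular microbes, and the machinery that presents peptides to T cells. In liver, hepatocytes, Kupffer cells and endothelial cells can all express such genes.

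Promoter windows from RefSeq (GRCm38.p6), reaching from 250 bases before to 50 after the annotated start, were found for 27 of the members. The ISRE was searched as GAAA, NN and GAAA in a row (N is any base) and the GAS as TTCNNNGAA, on both strands. The ISRE letters were present for 14 of the 27 members and for 4.0% of all 27025 genes with a window. The GAS letters were present for 10 of the 27 members and for 9.6% of all genes with a window. Of the 8 members that fell with fasting, 7 had a window, and the ISRE letters were in 5 of these 7 and in 9 of the 20 windows of members that did not pass the test. The GAS letters were in 3 of 7 and 7 of 20 windows. The 170 bases before the start are printed for 5 members that fell and for Rsad2 and Igtp, which did not pass, to show how the same letters occur in both. Capitals mark the matches, and each line runs 5′ to 3′ on the strand of the gene.
Bst2 (chr8:71537473-71537642, reverse strand): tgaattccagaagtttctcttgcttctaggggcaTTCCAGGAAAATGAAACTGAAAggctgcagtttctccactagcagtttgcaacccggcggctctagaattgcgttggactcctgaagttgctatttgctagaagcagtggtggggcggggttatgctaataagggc
Gbp7 (chr3:142530166-142530335, forward strand): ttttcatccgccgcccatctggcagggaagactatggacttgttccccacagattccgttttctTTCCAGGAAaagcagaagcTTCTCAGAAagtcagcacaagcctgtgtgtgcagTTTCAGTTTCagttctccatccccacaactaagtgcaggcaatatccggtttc
Isg15 (chr4:156200819-156200988, reverse strand): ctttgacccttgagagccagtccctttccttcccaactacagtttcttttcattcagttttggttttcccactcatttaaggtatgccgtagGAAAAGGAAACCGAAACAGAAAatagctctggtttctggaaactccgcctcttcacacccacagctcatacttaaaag
Ifit3 (chr19:34583359-34583528, forward strand): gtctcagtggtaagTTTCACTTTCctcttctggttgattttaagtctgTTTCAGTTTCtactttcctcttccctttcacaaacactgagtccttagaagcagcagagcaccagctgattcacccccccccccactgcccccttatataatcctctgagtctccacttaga
Irf1 (chr11:53769844-53770013, forward strand): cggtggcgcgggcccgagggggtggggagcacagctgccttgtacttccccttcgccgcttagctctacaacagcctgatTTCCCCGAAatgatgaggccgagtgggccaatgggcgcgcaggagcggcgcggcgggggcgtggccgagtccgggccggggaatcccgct
Rsad2 (chr12:26456453-26456622, reverse strand): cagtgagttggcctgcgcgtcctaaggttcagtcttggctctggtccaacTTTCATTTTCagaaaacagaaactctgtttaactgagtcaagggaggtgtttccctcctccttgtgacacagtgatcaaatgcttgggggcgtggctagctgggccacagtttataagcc
Igtp (chr11:58199386-58199555, forward strand): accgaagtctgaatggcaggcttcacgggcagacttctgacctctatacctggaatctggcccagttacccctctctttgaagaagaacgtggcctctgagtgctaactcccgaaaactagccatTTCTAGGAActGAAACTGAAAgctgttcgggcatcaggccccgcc
The Bst2 window held 1 GAS match and 2 overlapping ISRE matches in a single run, and the Isg15 window held 3 overlapping ISRE matches. The Irf1 window held a GAS match and no ISRE match, whereas Gbp7 held both. Irgm1 had ISRE matches starting 30 and 24 bases before its start. The Ifi47 window had neither set of letters. These are letter matches, not measured binding.

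Levels were compared between genes per kilobase of exon, as the median RPKM over the 22 libraries. Bst2 stood highest at 85.6 RPKM (48.8 to 159), followed by Iigp1 at 53.1 (37 to 84.5), Ifi27 at 29 (19.1 to 42.8), Stat2 at 13.6 (9.7 to 16) and Irf7 at 12.8 (6.94 to 17.7). Mx1 at 0.339 and Ifi44 at 0.246 RPKM stood lowest. Of neighbours in this order, only Ifi27 and Stat2 had ranges that did not overlap. A median of at least 1 RPKM was reached by 26 members and 10 lay under it. In 8 members the median level was under 3 CPM, and the count of Oas1a was between 0 and 196 reads, so their differences are loosely measured.

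Fasting lowered part of the group, and no member was called higher. The effect of fasting averaged over both genotypes was called for 8 of 36 members, all lower, which is 22.2% of the members, where 7.26% of all genes tested were called lower and 7.08% higher. These were Bst2, Gbp7, Ifi47, Isg15, Irf1, Irgm1, Ifit3 and Parp14. The median log2 change of the 36 members was -0.24 against 0.01 over all genes tested, and 29 of the 36 lay below 0, against 49% of all genes. The members and the other gene lists were chosen with earlier results of these data known. Their shares are therefore descriptive and not independent support for a fall of the group. Within control mice 5 members were called lower and none higher (13.9% of members, with 4.13% of all genes called lower and 3.99% higher), with a member median of -0.37 against 0.00 over all genes. Within knockout mice 3 members were called lower and none higher (8.33%, with 3.26% of all genes called lower and 2.88% higher), with a member median of -0.20 against 0.01. Calls are those of the edgeR quasi-likelihood fit at a Benjamini-Hochberg adjusted p under 0.05, with the adjustment made over all 16757 genes. Every fasted library lay below every fed library for 4 members in control mice (Bst2, Gbp7, Irgm1 and Irf1), as for 4.03% of all genes, and for 1 in knockout mice (Bst2), as for 2.15% of all genes. In bulk liver, fewer cells of a type and less RNA per cell cannot be told apart.

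**Figure D1:**
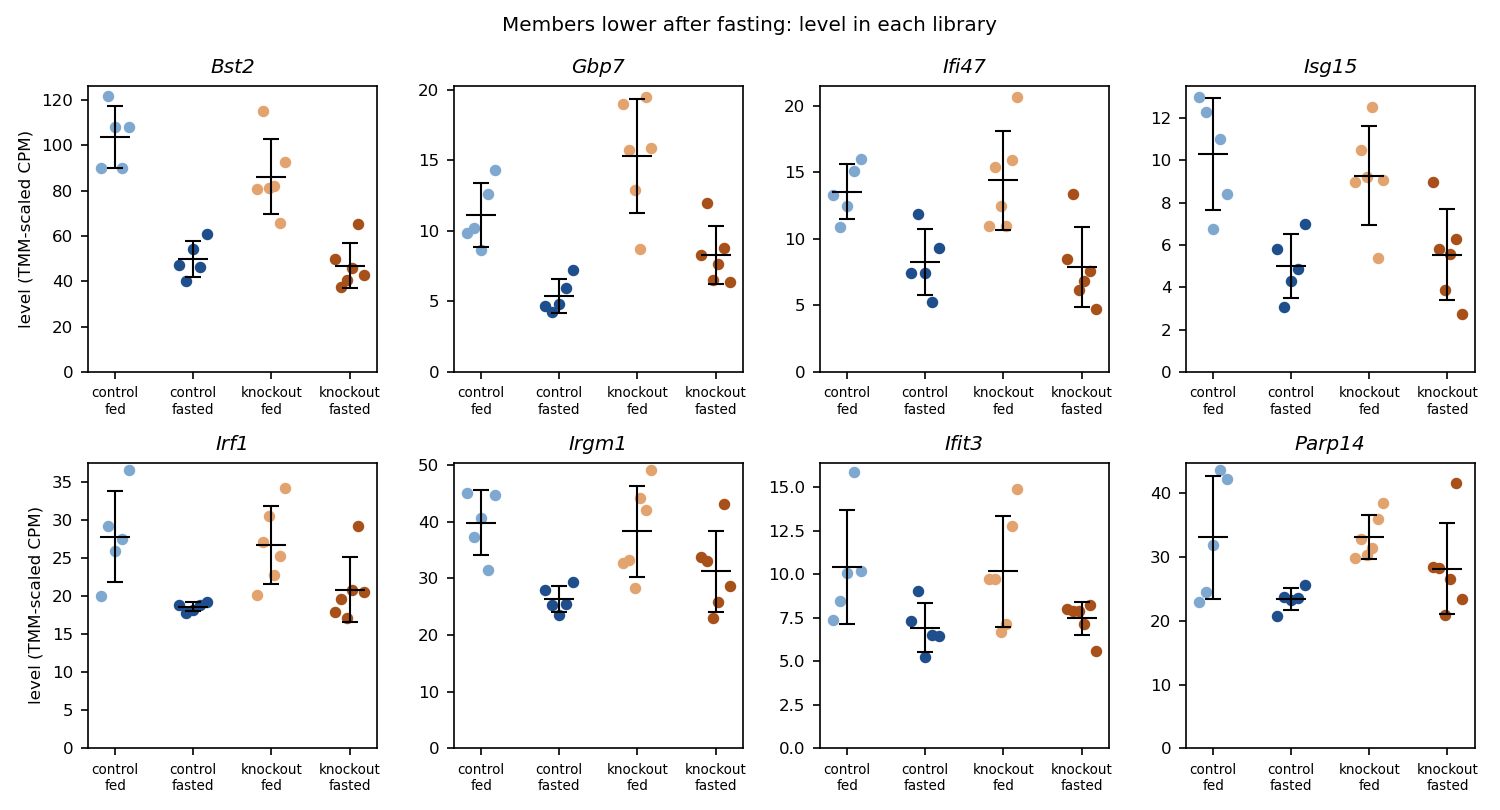
Level in TMM-scaled CPM (linear axes from 0) of the 8 members called lower after fasting, by group. Each point is a library, the horizontal bar is the mean and the error bar 1 SD (n = 5 in control, n = 6 in knockout groups), and Bst2 is the one gene in which every fasted library lies below every fed library.

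Bst2 encodes tetherin, a membrane protein that holds budding enveloped virions on the cell surface (chr8:71534264-71537437 in the files). Its levels were 90.2, 122, 108, 90.1 and 108 CPM in the control fed libraries and 47.2, 40.3, 54.1, 46.3 and 60.7 CPM in the control fasted libraries. Levels in knockout fed libraries were 65.6, 81.6 and 115 CPM (lowest, median, highest), and those in knockout fasted libraries 37.3, 44.3 and 65.2 CPM. No fasted library of either genotype reached any fed library, although the highest knockout fasted library came within 1 CPM of the lowest knockout fed one. Such a complete separation of all 11 fed from all 11 fasted libraries, with fasted below, was found for 1 member and for 0.907% of all genes. Bst2 fell by 1.06 on the log2 scale in control mice (SE 0.15, adjusted p = 5.14e-06) and by 0.88 in knockout mice (SE 0.13, adjusted p = 2.10e-05). The averaged change was -0.97 ± 0.10 (SE), with an adjusted p of 4.74e-09. With control fasted replicate 4, the library rich in kidney genes (called the kidney-like library from here), put back, the knockout call of Bst2 did not pass (adjusted p = 0.191). This library is in neither knockout group, and the knockout change of Bst2 stayed at -0.88 with it. All 4 groups share 1 estimate of the spread in the fit. The other knockout calls reported below as lost with this library kept their log2 change too.

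Among the guanylate binding proteins, GTPases that coat and disrupt pathogen vacuoles, Gbp7 was called and Gbp2 and Gbp3 were not. Gbp7 (chr3:142530338-142550083) stood at 9.84, 10.2, 8.63, 12.6 and 14.3 CPM in control fed and at 4.7, 4.27, 4.78, 5.93 and 7.25 CPM in control fasted libraries. In knockout libraries it ran from 8.69 through a median of 15.8 to 19.5 CPM when fed and from 6.38 through 7.95 to 12 CPM when fasted. The control groups did not overlap, while the lowest knockout fed library lay within the knockout fasted range. The averaged change was -0.96 ± 0.15 (SE, adjusted p = 1.20e-05), with -1.04 in control (adjusted p = 0.00184) and -0.89 in knockout mice (adjusted p = 0.004). Gbp3 stood at -0.51 and Gbp2 at -0.26 in the averaged contrast. For Gbp6 no gene of that symbol was present, but the gene model Gm43302 (chr5:105215699-105293699) spans Gbp10 and most of Gbp6 in the RefSeq annotation. Its level averaged 21.6 CPM in fed and 8.69 CPM in fasted libraries, an averaged change of -1.27 ± 0.20 (SE, adjusted p = 4.33e-05). It was picked after its values had been seen and is not counted as a member.

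The immunity related GTPases act on the same vacuoles, Irgm1 and Igtp as regulators and Iigp1 and Ifi47 as effectors. Ifi47 (chr11:49076587-49096974) stood at 13.3, 10.9, 12.5, 15.1 and 16 CPM in control fed and at 7.47, 11.9, 7.41, 5.28 and 9.28 CPM in control fasted libraries. Knockout fed libraries ran from 11 through a median of 13.9 to 20.7 CPM, and knockout fasted libraries from 4.74 through 7.23 to 13.4 CPM. In each genotype 1 fasted library lay inside the fed range. The averaged change was -0.80 ± 0.16 (SE, adjusted p = 0.00045). The change in knockout mice passed (-0.87, adjusted p = 0.00908) but did not with the kidney-like library put back (adjusted p = 0.302), and that in control mice was -0.72 (adjusted p = 0.0547). Exons of Ifi47 overlap those of Olfr56 on the same strand, so how reads were split between them is uncertain. The same applies to Igtp with Irgm2 and to Irf9 with Rnf31.

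Irgm1 (chr11:48861968-48871683) stood at 45.1, 37.2, 40.7, 31.4 and 44.7 CPM in control fed and at 28, 25.3, 23.6, 25.4 and 29.4 CPM in control fasted libraries. The control groups did not overlap. Knockout libraries overlapped widely, from 28.3 through a median of 37.7 to 49.1 CPM when fed and from 22.9 through 30.9 to 43.1 CPM when fasted. The change was -0.60 in control (adjusted p = 0.0121) and -0.29 in knockout mice (adjusted p = 0.306), and it averaged -0.44 ± 0.11 (SE, adjusted p = 0.00281). The difference between these effects, 0.30 ± 0.21 (SE), did not pass (adjusted p = 1). Iigp1, the second most abundant member, was at 163 CPM fasted and 180 CPM fed, a change of -0.14, and Igtp stood at -0.21.

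Isg15 encodes the ubiquitin-like modifier that is attached to proteins during the interferon response (chr4:156199424-156200818). Its levels were 13, 12.3, 6.73, 11 and 8.42 CPM in control fed and 5.8, 3.06, 4.31, 4.85 and 7.01 CPM in control fasted libraries. Knockout fed libraries ran from 5.37 through a median of 9.14 to 12.5 CPM, and knockout fasted libraries from 2.73 through 5.71 to 8.97 CPM. The groups overlapped by a single fasted library in control and by more in knockout mice. Isg15 changed by -0.88 ± 0.19 (SE) in the average (adjusted p = 0.000734). It fell by 1.03 in control mice (adjusted p = 0.0135, and 0.0506 without control fasted replicate 2), and stood at -0.74 in knockout mice (adjusted p = 0.0771). Usp18, which removes ISG15 from its targets and restrains the type I receptor, stood at 0.19 ± 0.28 (SE) and spread from 4.28 to 27.9 CPM over fasted libraries.

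Of the transcription factors Irf1 was called and Irf7, Irf8, Irf9 and Stat2 were not. IRF1 drives much of the secondary response to interferon gamma and binds the promoters of antigen presentation genes. Irf1 (chr11:53770014-53778374) stood at 20, 29.3, 25.9, 27.5 and 36.6 CPM in control fed and at 18.9, 17.8, 18.2, 18.9 and 19.3 CPM in control fasted libraries. The control groups did not overlap, and the fasted libraries were close together. Knockout fed libraries ran from 20.2 through a median of 26.2 to 34.2 CPM and knockout fasted ones from 17.2 through 20.1 to 29.2 CPM, so these groups overlapped. The change averaged -0.47 ± 0.11 (SE, adjusted p = 0.00219), with -0.58 in control (adjusted p = 0.0182, and 0.0931 without control fed replicate 5) and -0.36 in knockout mice (adjusted p = 0.182). Exons of Irf1 overlap Gm17334 on the opposite strand, and the strand setting of the counting is not given in the sources used here. Irf7, the amplifier of type I interferon production, stood at -0.40 (adjusted p = 0.113). Stat2 at -0.04 ± 0.09 (SE) and Irf9 at 0.07 ± 0.10 (SE), parts of the complex that binds the ISRE, had changes near 0, and Irf8, a factor of myeloid cells, stood at 0.31 ± 0.20 (SE).

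Ifit3 and Parp14 were called in the average alone. Ifit3, which works with Ifit1 and Ifit2 in binding foreign RNA (chr19:34583531-34588731), stood at 7.37, 8.49, 10.1, 15.9 and 10.2 CPM in control fed and at 7.33, 9.07, 5.26, 6.54 and 6.46 CPM in control fasted libraries. Knockout fed libraries ran from 6.7 through a median of 9.74 to 14.9 CPM and knockout fasted libraries from 5.62 through 7.9 to 8.23 CPM, and groups overlapped in both genotypes. The change averaged -0.52 ± 0.16 (SE, adjusted p = 0.0207) and did not pass without control fed replicate 4 (0.0711) or knockout fed replicate 6 (0.0506). Parp14 encodes a mono-ADP-ribosyltransferase that takes part in macrophage and antiviral responses (chr16:35832874-35871544). It stood at 23, 24.6, 31.9, 43.7 and 42.2 CPM in control fed and at 20.8, 23.7, 23.3, 23.6 and 25.7 CPM in control fasted libraries. Knockout fed libraries ran from 29.8 through a median of 32.2 to 38.5 CPM and knockout fasted libraries from 20.9 through 27.4 to 41.6 CPM. The highest of the 6 knockout fasted libraries, replicate 5, lay above all knockout fed ones, and the other 5 lay below them. The averaged change of -0.37 ± 0.11 (SE, adjusted p = 0.0253) did not pass without control fed replicate 4 (0.0737) or 5 (0.0721), replicate 1 of the control fasted group (0.052) or knockout fasted replicate 6 (0.0508). It did not pass with the kidney-like library put back (0.0617) either.

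The other 28 members did not pass in any fasting contrast. Closest were Xaf1, an inducer of apoptosis, at -0.52 (adjusted p = 0.0519) and Ifi35 at -0.35 (adjusted p = 0.0557). The OAS proteins, whose products activate RNase L, stood at -0.53 for Oasl2, -0.32 for Oas2 and -0.13 for Oas1a, and none of the 3 passed. Neither Mx protein, dynamin-like GTPases that trap viral nucleocapsids, passed, with Mx1 at -0.18 and Mx2 at 0.01. Values above 0 were found for Rsad2 (viperin, which makes a chain-terminating nucleotide) at 0.25, Dtx3l (a ubiquitin ligase that partners PARP9) at 0.17 and Cxcl10 (a T cell chemokine) at 0.38, none of which passed. Eif2ak2, the kinase that stops translation on double-stranded RNA, stood at -0.02 ± 0.13 (SE). Tap1, the peptide transporter, stood at -0.22, and its exons overlap Psmb9 on the opposite strand. A p that misses the threshold does not show that such a gene did not change.

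**Figure D2:**
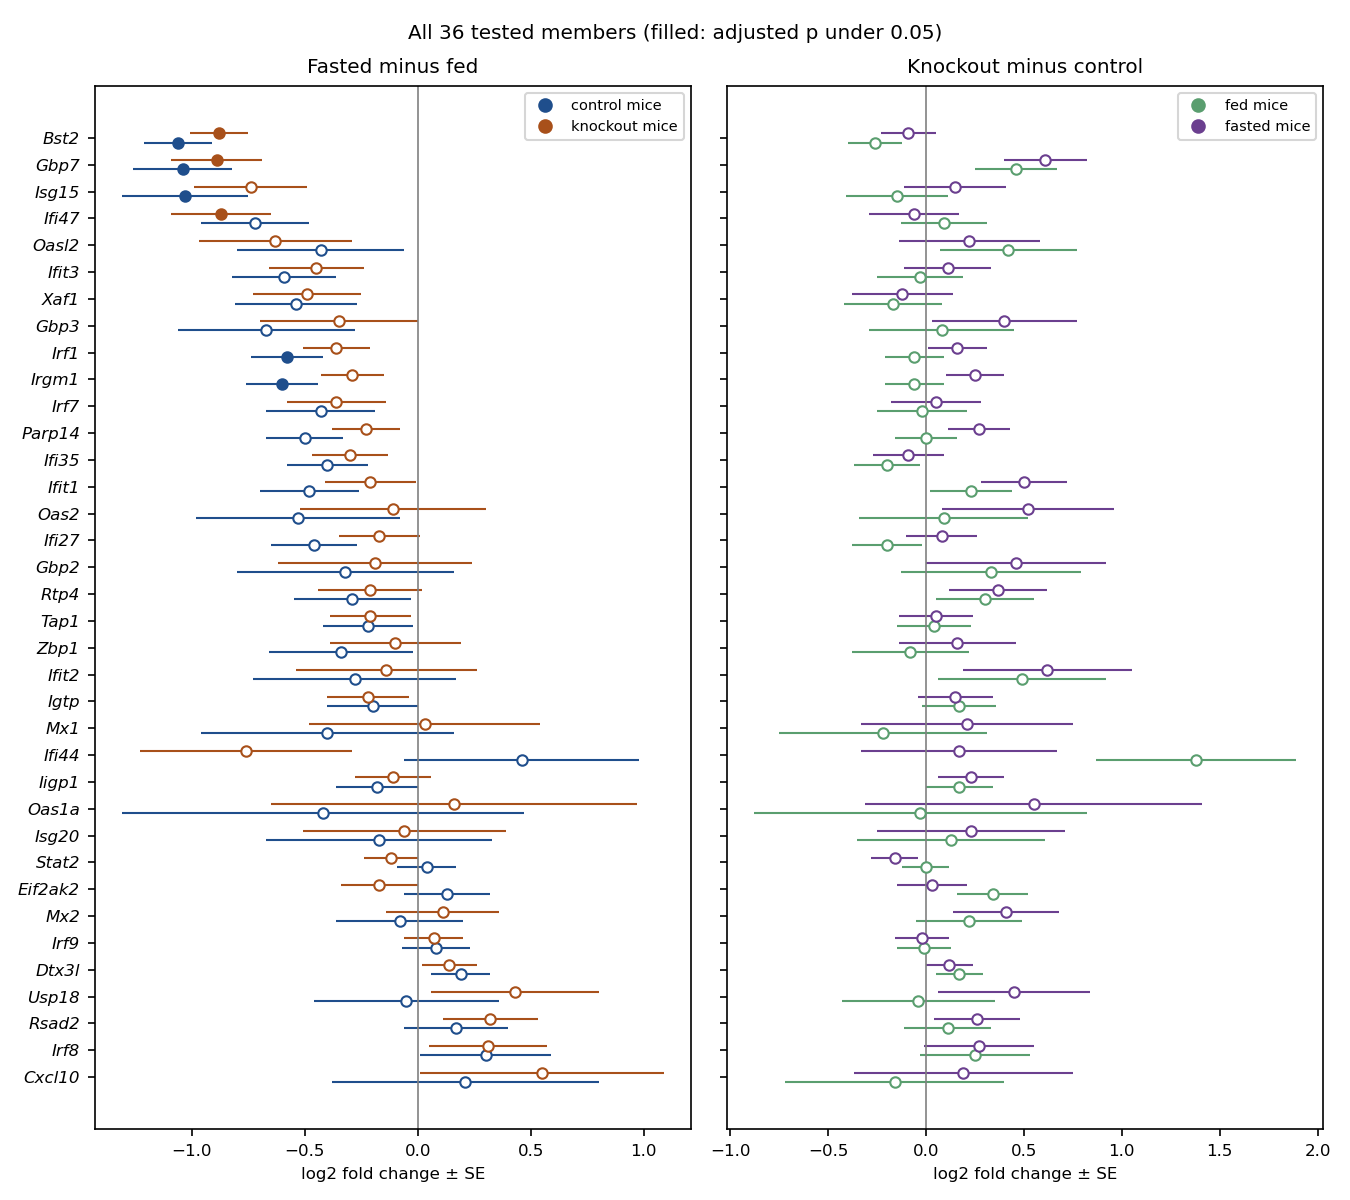
Log2 fold change with its SE for the 36 tested members, ordered by the averaged fasting effect from the lowest at the top, with fasting effects in each genotype on the left and knockout effects in each feeding state on the right. Filled points have an adjusted p under 0.05 (edgeR quasi-likelihood fit): 5 in control and 3 in knockout mice for fasting, and 0 for the knockout.

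The loss of Gpt2 gave no call among the members. In fed mice 0 of 36 passed, with 0.00597% of all genes called, and 2 had an unadjusted p under 0.05, both higher, where 9.01% of all genes had one. In fasted mice 0 of 36 passed (0.00597% of all genes) and 2 were higher at an unadjusted p under 0.05, which 4.01% of all genes reached in either direction. Averaged over feeding 0 passed (0.0358% of all genes), with 3 higher at an unadjusted p under 0.05, against 8.71% of all genes. DESeq2 and limma also called 0 members in each of these contrasts. The member median was 0.06 in fed and 0.20 in fasted mice, against 0.00 and 0.01 over all genes. In fasted mice 30 of 36 members lay at or above 0, where 48.7% of all genes lay below 0. In fed mice 21 of 36 lay at or above 0, where 49.5% of all genes lay below 0.

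The smallest averaged p belonged to Gbp7, at 8.25 CPM in control and 11.8 CPM in knockout libraries, a difference of 0.54 ± 0.15 (SE, adjusted p = 0.231 in the edgeR fit). It stood at 0.46 in fed (adjusted p = 0.519) and 0.61 in fasted mice (adjusted p = 1). Ifit1 followed at 0.36 ± 0.15 (SE, adjusted p = 0.49), with 5.86 ± 1.03 CPM (SD, n = 5) in control fasted libraries against 8.26 ± 2.1 CPM (SD, n = 6) in knockout fasted ones. Ifi44 had the smallest p in fed mice, at 1.02 ± 0.605 CPM (SD, n = 5) for control and 2.65 ± 1.31 CPM (SD, n = 6) for knockout libraries, a difference of 1.38 ± 0.51 (SE, adjusted p = 0.393). The fed ranges of Ifi44 overlapped, 0.247 to 1.67 CPM in control and 0.841 to 4.04 CPM in knockout libraries, and in fasted mice its difference was 0.17 ± 0.50 (SE). Bst2 stood at -0.26 ± 0.14 (SE) in fed mice (adjusted p = 0.597), and Parp14 at 0.27 ± 0.16 (SE) in fasted mice (adjusted p = 1).

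Whether fasting acted differently in the genotypes was tested as an interaction. It was called for 0 of 36 members (0.00597% of all genes), none had an unadjusted p under 0.05, and DESeq2 and limma called 0. The smallest p values belonged to Ifi44 (-1.21 ± 0.70), Irgm1 (0.30 ± 0.21) and Eif2ak2 (-0.31 ± 0.25), each with an adjusted p of 1 and errors as SE. For the members called in 1 genotype, the interaction stood at 0.29 ± 0.37 for Isg15, 0.23 ± 0.22 for Irf1 and -0.15 ± 0.32 for Ifi47 (SE). The calls in 1 genotype are therefore not shown to differ from the effect in the other.

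Libraries of a group differed as a whole. Knockout fasted replicate 5 had the highest level of its group in 19 of 36 members, knockout fed replicate 6 in 17, control fasted replicate 6 in 17 and control fed replicate 5 in 15. In knockout fed replicate 6, 32 of 36 members lay above the median of the 22 libraries, in control fed replicate 5 there were 29 and in knockout fasted replicate 5 there were 28, whereas in knockout fasted replicate 3 there were 5 and in control fasted replicate 5 there were 6. Without knockout fasted replicate 5 the averaged fasting effect was called for 10 members, all lower, and without knockout fed replicate 6 for 8. Over all genes, fits that each left out 1 library gave 2194 to 2458 calls in the average, against 2404 with all 22. In knockout fasted replicate 5 the summed level of T and NK cell markers (4.78 CPM) and that of monocyte and neutrophil markers (6.3 CPM) were the highest of the group, and its hepatocyte sum (70145 CPM) and B cell sum (1.58 CPM) were the lowest. The kidney sum of knockout fasted replicate 5 (3.03 CPM) was also the highest of its group. Knockout fed replicate 6 had the lowest T and NK cell (2.17 CPM), dendritic cell (4.1 CPM) and kidney sums (0.0833 CPM) of its group. Its B cell (7.1 CPM) and stellate cell sums (164 CPM) were the highest. In control fed replicate 5 the Kupffer cell sum (266 CPM) was the highest of the group. Its T and NK cell (1.92 CPM) and monocyte and neutrophil sums (3.43 CPM) were the lowest. In control fasted replicate 6 the Kupffer cell (150 CPM), endothelial (170 CPM) and dendritic cell sums (2.48 CPM) were the lowest of the group. So were its monocyte and neutrophil (1.81 CPM), T and NK cell (1.04 CPM) and kidney sums (0.337 CPM). The part of these cells in the members' levels was not tested.

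**Figure D3:**
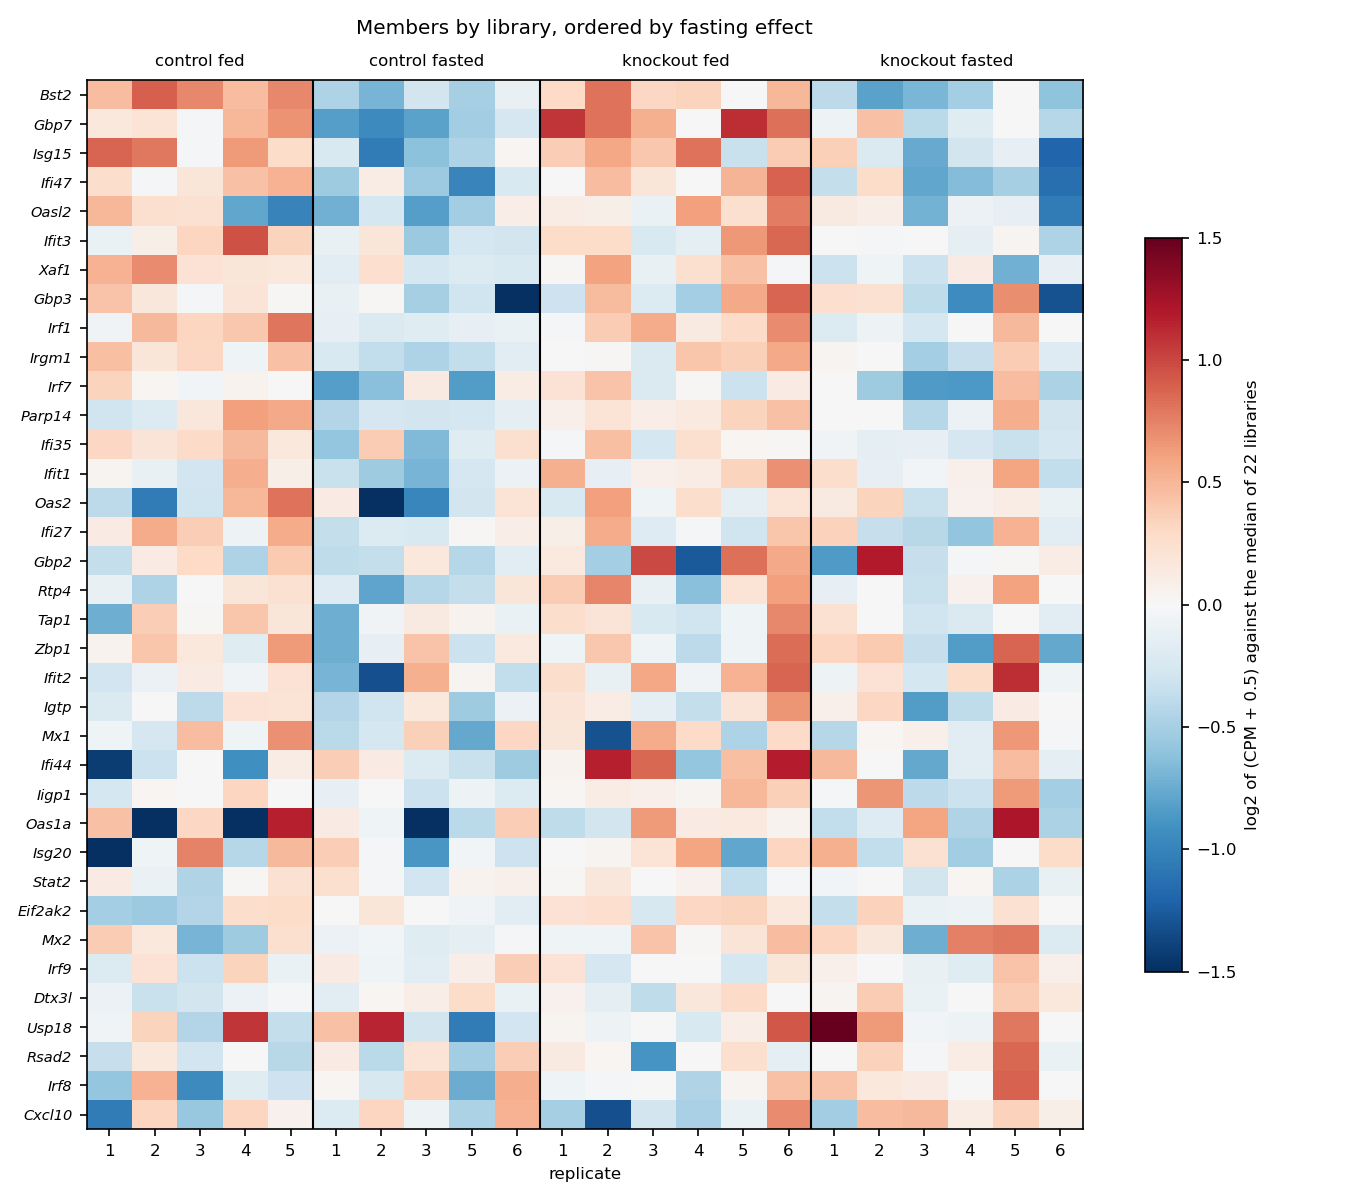
Each cell is the log2 of a member's level (TMM-scaled CPM plus 0.5) against its median over the 22 libraries, with colours ending at ±1.5, libraries in columns by group and members in rows from the lowest averaged fasting effect at the top. The upper rows are mostly blue in fasted libraries, and the columns of knockout fed replicate 6 and knockout fasted replicate 5 are mostly red.

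Ligands and receptors were examined next. Of 8 interferon genes, Ifnl2 was tested, with 211 reads over the 22 libraries, and it did not pass in any contrast. Ifna1 and Ifna4 had 0 reads, and Ifnb1 had 2, Ifng 3, Ifna2 6, Ifne 6 and Ifnl3 1 read in all. For a gene with 0 reads, up to 3 reads over the 22 libraries, or 0.00375 CPM, are possible from counting error alone. Of 9 tested receptors, kinases and STATs, 1 rose with fasting and none fell in the average, beside 7.08% of all genes called higher. Ifngr2, the second chain of the interferon gamma receptor, rose from 15.9 to 25.9 CPM, a change of 0.70 ± 0.12 (SE, adjusted p = 5.45e-05). Among 7 restraints of the pathway 2 rose and none fell. Trim24, a nuclear co-repressor, rose by 1.37 ± 0.22 (SE, adjusted p = 0.000149), and Ptpn11, the phosphatase SHP2, by 0.30 ± 0.08 (SE, adjusted p = 0.00532).

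Of 18 nucleic acid sensors and adaptors 5 fell and 1 rose in the averaged fasting contrast, with a list median of -0.12, beside 7.26% of all genes called lower. Ifih1 (MDA5) and Ddx58 (RIG-I), the cytosolic sensors of viral RNA, changed by -0.55 ± 0.11 and -0.40 ± 0.10 (SE, adjusted p = 0.000273 and 0.00399). Irf5, a factor downstream of Toll-like receptors, changed by -0.86 ± 0.18, and Ikbke, a kinase of IRF3 and IRF7, by -0.56 ± 0.16 (SE, adjusted p = 0.00114 and 0.015). Ikbke did not pass with the kidney-like library put back (0.108). Traf3 (-0.42 ± 0.14) fell and Traf6 (0.38 ± 0.11, SE) rose, both named after their values were seen. Traf3 did not pass in 14 of 22 fits that each left out 1 library (adjusted p up to 0.0932). It did not pass with the kidney-like library put back (0.145) either. Traf6 did not pass without control fasted replicate 3 (0.057) or with library totals for scaling (0.0536). In control mice 3 of the 18 fell and 1 rose, and in knockout mice 2 fell, beside 4.13% and 3.26% of all genes called lower. Calls within 1 genotype depended on single libraries for all of these but Ifih1 in control mice. Leaving out 1 library in turn ended the knockout call of Ddx58 in 15 of 22 fits (highest adjusted p = 0.121, without knockout fed replicate 4) and that of Ifih1 in 9 of 22 (0.135, without knockout fasted replicate 6). With the kidney-like library put back they stood at 0.106 and 0.248, and Ikbke did not pass in control mice (0.0961). In control mice leaving out 1 library ended the call of Irf5 in 6 fits (up to 0.0821) and of Ikbke in 3 (up to 0.0684). Both were highest without control fasted replicate 5. The control call of Traf6 ended in 6 such fits (up to 0.168, without control fasted replicate 3). It also ended in 5 of 9 other processing settings (up to 0.108, limma voom with sample weights). That of Irf5 ended in 1 of these settings (0.0506, filter of 1 count).

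Of 41 tested interferon stimulated genes outside the members, 7 fell and 1 rose in the average, with a median of -0.26 against 0.01 over all genes, of which 7.26% were called lower. In control mice 3 of the 41 fell and 1 rose (4.13% of all genes called lower), and in knockout mice 5 fell (3.26%). Ly6e, a membrane protein that alters viral entry, went from 260 CPM fed to 103 CPM fasted, a change of -1.34 ± 0.11 (SE, adjusted p = 1.43e-10). Ifitm3, which blocks fusion of viruses with endosomes, went from 328 to 157 CPM, a change of -1.06 ± 0.14 (SE, adjusted p = 5.13e-06). Its knockout call did not pass with the kidney-like library put back (0.355). Trim25, a ubiquitin ligase that acts on RIG-I, rose by 0.42 ± 0.10 (SE, adjusted p = 0.00276).

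The enzymes that attach ISG15 were among the genes that fell, and they are set beside it here after their values had been seen. Uba7, the activating enzyme, went from 12.2 to 6.73 CPM (-0.86 ± 0.15, SE, adjusted p = 6.87e-05). Ube2l6, the conjugating enzyme, went from 45.6 to 33.1 CPM (-0.46 ± 0.12, SE, adjusted p = 0.00602), and Herc6, the main ligase in mice, from 11.2 to 7.1 CPM (-0.65 ± 0.17, SE, adjusted p = 0.00591). Within 1 genotype, the control call of Uba7 was lost on leaving out control fed replicate 1 (0.0569), or replicates 5 (0.0679) or 6 (0.057) of the control fasted group. The knockout call of Ube2l6 did not pass without any one of knockout fed replicates 1 (0.0535), 3 (0.0793) and 5 (0.0634) and knockout fasted replicates 3 (0.0714), 4 (0.0746) and 5 (0.0695). With the kidney-like library put back Ube2l6 passed neither in knockout mice (0.66) nor in the average (0.188).

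Of 12 genes of class I antigen presentation, by which peptides from the cytosol reach CD8 T cells, 7 fell and 1 rose in the average, with a median of -0.35, beside 7.26% of all genes called lower. In control mice 7 fell and 1 rose (4.13% of all genes called lower and 3.99% higher), and in knockout mice 3 fell (3.26% called lower). Psmb9 and Psmb10, subunits of the immunoproteasome, changed by -0.96 ± 0.14 and -0.77 ± 0.12 (SE, adjusted p = 6.27e-06 and 1.69e-05). Tapbp, the peptide-loading chaperone tapasin, changed by -0.54 ± 0.08 and Psme2, a subunit of a proteasome activator, by -0.65 ± 0.12 (SE, adjusted p = 9.76e-06 and 0.000253). Psmb8, the third inducible subunit, changed by -1.13 ± 0.22 in control mice (SE, adjusted p = 0.000677) and stood at -0.21 in knockout mice, but no interaction in this list passed (smallest adjusted p = 0.977). The one that rose, Nlrc5, is the transactivator of class I genes, and it changed by 0.48 ± 0.12 (SE, adjusted p = 0.00481). The knockout call of Psmb9 did not pass without knockout fed replicate 2 (0.0537) or 6 (0.0567) or knockout fasted replicate 4 (0.0585) or 6 (0.0734). With the kidney-like library put back, the knockout calls of Psmb9 (0.175) and Psmb10 (0.0597) and the averaged call of Nlrc5 (0.459) did not pass. None of 7 class II genes passed in any contrast by edgeR, with a smallest adjusted p of 0.158. No gene of these lists passed in a knockout contrast or the interaction.

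**Figure D4:**
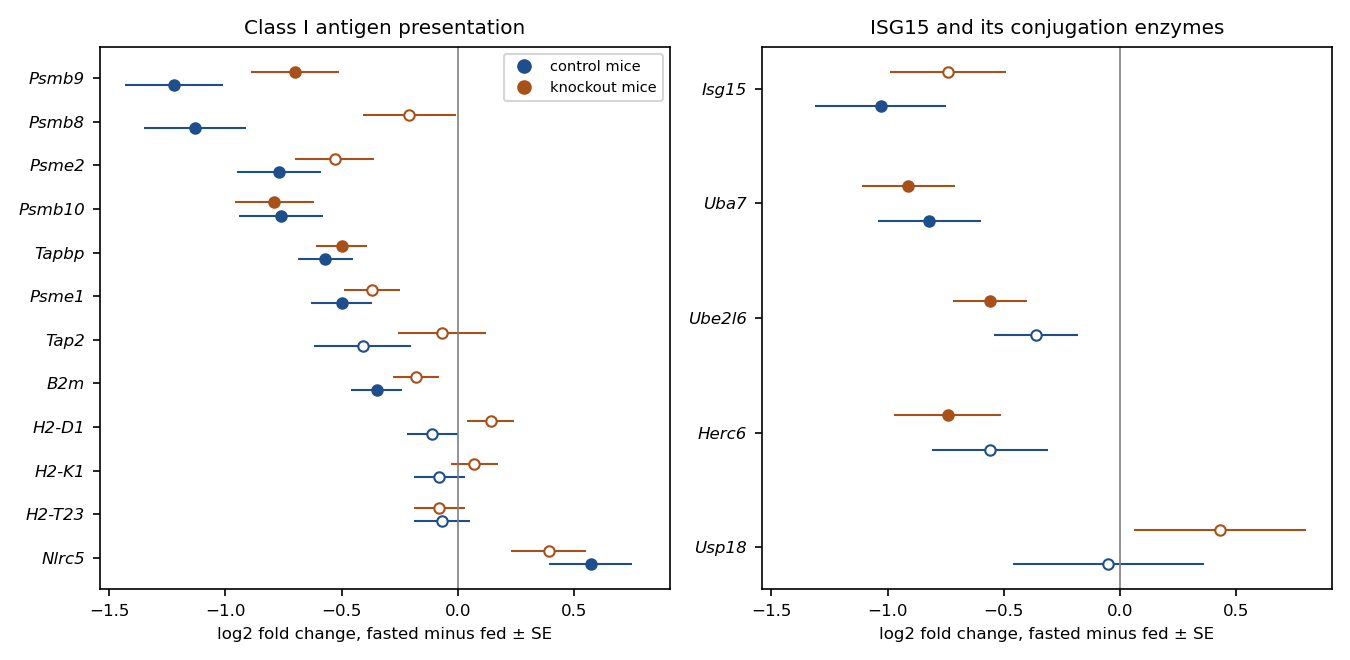
Log2 fold change of fasted minus fed with its SE, in control and knockout mice, for the 12 class I antigen presentation genes (left) and for ISG15, its 3 conjugation enzymes and Usp18 (right), with filled points for an adjusted p under 0.05. Subunits of the immunoproteasome and the enzymes of ISG15 conjugation lie left of 0 in both genotypes, and Nlrc5 lies right of 0.

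Markers of other cells were read in the same libraries. None of 10 Kupffer cell and macrophage markers passed with fasting, and their summed level had medians of 192 CPM in control fed (163 to 266) and 167 CPM in control fasted (150 to 182). In knockout libraries the sums were 235 CPM fed (211 to 336) and 252 CPM fasted (171 to 349). With fasting 9 of these 10 markers lay below 0 in control mice, with a median log2 change of -0.35, where the members had -0.37. In knockout mice 3 of 10 lay below 0 (median 0.08, members -0.20), and in the average 9 of 10 (median -0.16, members -0.24). Of 7 sinusoidal endothelial markers 3 rose with fasting in the average (Lyve1, Stab1 and Stab2), beside 7.08% of all genes called higher. The summed medians of the 7 were 148 and 192 CPM in control and 211 and 259 CPM in knockout mice, fed and fasted. Dendritic cell markers (0 of 6 called) were low, with summed medians of 6.68 CPM in control fed (4.04 to 7.17), 4.22 CPM in control fasted (2.48 to 4.61), 5 CPM in knockout fed (4.1 to 7.24) and 4.5 CPM in knockout fasted libraries (4.22 to 4.58). None of 8 T and NK cell, 5 B cell and 4 monocyte and neutrophil markers tested passed. Of 6 stellate cell markers 3 fell in the average (Col3a1, Col1a1 and Reln), and of 6 hepatocyte markers Apoa1 rose and Ttr fell. Over all genes, 7.26% were called lower and 7.08% higher with fasting in the average. In the averaged knockout contrast 10 of 10 Kupffer cell markers lay above 0 with none called. In the same contrast 7 of 7 endothelial markers lay above 0, and 2 rose (Mrc1 and Kdr), beside 0.0358% of all genes called in either direction. Kidney marker sums were highest in control fasted replicate 5, at 17.4 CPM. No marker was at 0 in all 22 libraries. The part of these cell types in the members' changes was not tested.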

How the data were processed

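Liver RNA was selected with oligo-dT, per the labels' protocols. The authors deposited read counts per gene made with bcl2fastq, STAR 2.5.1a and featureCounts 1.4.6-p5 on GRCm38, per the submitters' processing notes. For annotation release and strand setting: not given in the sources used here. The deposited CPM and RPKM columns, per the file headers, were checked to be counts per 1 M reads of the library total, and that per kilobase, and were not tested. The file of control fed replicate 6 held part of chromosome 1. Over 55 pairs within groups no duplicate was found (lowest chi-square per degree of freedom 37.4).

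The test was edgeR 4.0.16 under R 4.3.3 on counts (robust glmQLFit, glmQLFTest, TMM, filterByExpr with a minimum count of 10) in 1 fit of 4 groups over 22 libraries, with Benjamini-Hochberg adjustment over 16757 genes. SE is the log2 change over F's square root. Printed levels are CPM scaled by TMM, and RPKM are these per kilobase. Of 203 listed symbols 200 matched, and Gbp5, Gbp6 and Gbp10 did not. Named were all called members, where fewer than 3 were called the 3 smallest p, in other lists up to 4 called genes, and Gpt2. A further gene that this rule takes is not reported here. Herc6, Nlrc5, Traf3, Traf6 and the averaged values of Ube2l6 were added after they were seen. The members and lists were chosen with earlier results of these data known. The procedure was tested on simulated data. Of simulated 1.5-fold changes it called 11.9% for the knockout in fed mice, 13.4% in fasted mice and 8.96% for the interaction. Of 2-fold changes it called 38.8%, 47.8% and 32.8%. For fasting averaged over genotypes these shares were 43.3% and 41.8%. For fasting in control mice they were 7.46% and 44.8%, and in knockout mice 22.4% and 40.3%. Each share rests on a random draw of genes and is itself imprecise. Changes of these sizes may thus be missed.

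Alternatives were all 23 complete libraries, library totals or RLE factors for scaling, a filter of 1 count or of 1 CPM on average, limma 3.58.1 voom with sample weights, DESeq2 1.42.0, neighbouring title numbers as a random block, only the groups compared, and each library left out.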

Additional observations from a re-analysis of the deposited data

Results flagged for a closer look

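In each group of 5 or 6 libraries the highest and lowest levels of every member were set against the rest of the group by Dixon's criterion. Of 144 groups 10 held a library far from the others, and chance gives about 1 in 20. Knockout fasted replicate 5 accounted for 5 of them, all as the highest library. There Irf1 was at 29.2 CPM (the others 17.2 to 20.8), Irf9 at 44.4 CPM (29 to 34.6), Ifit2 at 4.43 CPM (1.41 to 2.28), Parp14 at 41.6 CPM (20.9 to 28.4) and Rtp4 at 10.4 CPM (5.21 to 7.01). Gbp2 in knockout fasted replicate 2 was at 5.26 CPM (0.908 to 2.24). Usp18 in knockout fed replicate 6 was at 18.4 CPM (7.97 to 10.1), and Eif2ak2 in knockout fed replicate 3 was the lowest at 11.2 CPM (15 to 17). Irf7 in control fed replicate 1 was at 48.8 CPM (37.4 to 40) and Xaf1 in control fasted replicate 2 at 4.69 CPM (3.14 to 3.38).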

How the results depend on the processing

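Leaving out each library in turn gave 4 to 7 members lower with fasting in control, 3 to 4 in knockout mice and 6 to 10 in the average. Over all genes these fits called 1088 to 1434, 845 to 1075 and 2194 to 2458 genes in either direction. The other alternatives gave 5 to 6, 1 to 4 and 8 to 12, where the 1 in knockout mice came with all 23 complete libraries. No member was called higher with fasting, or called at all in a knockout contrast or the interaction, under any of them. The library that the 23 add is in neither knockout group. With it the knockout changes of Bst2 and Ifi47 stayed at -0.88 and -0.87. Counts over all genes differed by over 1.5 times with all 23 libraries, at 805 against 1360 for fasting in control mice, 379 against 1029 in knockout mice and 1529 against 2404 in the average. For the knockout in fed mice they ran from 0 to 68 (DESeq2) against 1, averaged over feeding from 1 to 37 against 6, and for the interaction from 0 to 6 against 1. Without one library they ran from 1 to 13 in fed mice and from 3 to 15 averaged over feeding. With library totals the split of fasting calls over all genes was 357 higher and 616 lower in knockout mice (483 and 546 with TMM). Limma voom with neighbouring title numbers as a random block (10 clusters, consensus correlation -0.013) called 11 members lower in the average, and limma voom with sample weights and no block 12. The labels share no replicate number between groups, so the block stands for neighbouring numbers and not for a stated pairing. The cause of these shifts was not tested. In 8 members a median level under 3 CPM limits the precision.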

Other observations

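In the library left out as kidney-like, control fasted replicate 4, 25 of the 36 members lay below the range of the other 5 control fasted libraries, 6 above and 5 within it. Iigp1 was at 3.68 CPM (133 to 165 in the others), Bst2 at 5.95 CPM (40.3 to 60.7) and Stat2 at 10.6 CPM (49 to 70.5). Irf8 at 12.7 CPM, Ifit2 at 4.64 CPM and Ifi44 at 4.45 CPM were above all 22 libraries used.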
